A study of Mus musculus with 27 samples.

Results

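The interferon-inducible GTPases described here are 10 genes, Gbp2, Gbp3, Gbp5, Gbp6, Gbp7, Gbp9, Iigp1, Irgm1, Irgm2 and Igtp, chosen by their symbols among the 31053 genes listed for each library. Their unique molecular identifiers (UMIs, 1 per captured RNA molecule) were summed in each library over nuclei of the same class and expressed relative to all UMIs of that class in that library (counts per 1e6, CPM). In hippocampal nuclei of mice carrying the human P301S tau transgene, 7 of the 10 genes were detected. All 7 rose in astrocyte-like nuclei, where 2.12% of all genes rose. Gbp5 went there from a mean of 1.23 to 13.1 CPM and Iigp1 from 0.755 to 12.1 CPM. In microglia-like nuclei the members summed to 95.4 CPM without the transgene, of which Irgm2 made up 52.7 CPM. There Irgm1 and Iigp1 rose, where 7.63% of all genes rose, while Irgm2, at 45.5 CPM with the transgene, did not pass the test. The microglial rise of Iigp1 rests on 9 tau-free UMIs and was called in 31 of 57 settings, and the calls in both classes were lost without any 1 of 4 tau-free libraries. No member passed the test between Cgas genotypes, where at most 0.00129% of all gene tests were called in a comparison.

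The series holds 27 libraries of single hippocampal nuclei, 1 per mouse. The 18 P301S mice comprised 6 each of the genotypes P301S Cgas+/+, P301S Cgas+/- and P301S Cgas-/-, every such group being 3 males with 3 females. The 9 mice lacking the transgene were a Cgas+/+ group of 5, of which 2 were female, and pairs of males for Cgas+/- and for Cgas-/-. P301S is a mutant human tau expressed in neurons from the mouse prion protein (Prnp) promoter, and Cgas encodes the DNA sensor whose product activates STING and type I interferon expression. Age was not among the labels, and both tau-free groups with a reduced Cgas dose consisted of males only.

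Guanylate-binding proteins (Gbp genes) and immunity-related GTPases (Iigp1, Irgm1, Irgm2 and Igtp) are large proteins that bind and hydrolyse GTP and are induced by type I interferon and, most strongly, by interferon gamma. Gbp2, Gbp5 and Iigp1 act as effectors that coat vacuoles holding intracellular pathogens, and Gbp2 and Gbp5 also promote inflammasome activation. Irgm1, Irgm2 and Igtp (Irgm3) are regulators that sit on the membranes of the cell itself and keep effector GTPases off them. Receptor signals reach their genes through transcription factors that bind the interferon-stimulated response element (ISRE), among them IRF9, or the gamma-activated sequence (GAS).

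Promoters are shown because interferon acts on such genes through these elements, and Igtp is included beside its neighbour Irgm2 although it gave no UMI. RefSeq promoter windows on GRCm38.p6, which reach from 250 bases before to 50 bases after a gene start, were held for 7 members, with Gbp6 and Gbp9 not among them and Iigp1 not shown. Capitals mark the ISRE core, searched on both strands as GAAANNGAAA or TTTCNNTTTC. The printed stretches of the windows are chr3:142620594-142620623 for Gbp2, chr3:142559992-142560021 for Gbp3, chr3:142496724-142496823 for Gbp5 and chr3:142530236-142530335 for Gbp7, all on the plus strand. Those of the immunity-related GTPases are chr11:48871428-48871457 for Irgm1 on the minus strand, and chr11:58214877-58214976 for Irgm2 and chr11:58199456-58199555 for Igtp on the plus strand. Stretches that an annotated exon reaches into are cut to 30 bases.
Gbp2: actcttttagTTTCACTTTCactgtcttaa
Gbp3: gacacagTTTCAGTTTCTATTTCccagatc
Gbp5: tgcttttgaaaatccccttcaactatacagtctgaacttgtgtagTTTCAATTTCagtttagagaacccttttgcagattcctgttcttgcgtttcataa
Gbp7: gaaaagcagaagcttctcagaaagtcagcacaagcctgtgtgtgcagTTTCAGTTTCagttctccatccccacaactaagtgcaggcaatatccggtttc
Irgm1: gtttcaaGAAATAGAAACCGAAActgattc
Irgm2: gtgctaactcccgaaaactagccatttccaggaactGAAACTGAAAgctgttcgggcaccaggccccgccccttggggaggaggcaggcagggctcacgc
Igtp: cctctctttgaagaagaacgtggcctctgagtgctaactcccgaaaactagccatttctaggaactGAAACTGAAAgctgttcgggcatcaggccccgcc

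Each of these 7 members held at least 1 ISRE core in a promoter, against 936 of 27025 genes in the whole table (3.46%). Gbp3 and Irgm1 each held a pair of cores that overlap one another, and a second annotated start of Gbp3 held none. The match began 59 bases before the start in Gbp2, 53 bases before it in Gbp7 and 165 bases before it in Gbp5. A GAS (TTCNNNGAA, which reads the same on both strands) was found in Gbp5, Gbp7, Irgm2 and Igtp, and in 8.13% of all genes. In Irgm2 the GAS lies just upstream of the ISRE core with no shared base, and the same arrangement is seen in Igtp. Set side by side at the first base of the core, the stretches printed for Irgm2 and Igtp agreed at 68 of 70 positions (97.1%). Those of Gbp5 and Gbp7 agreed at 35 of 98 (35.7%), and the other Gbp pairs, over 27 to 30 positions, at 50 to 66.7%. The fixed letters of the core agree by the search itself and weigh more in short stretches. These shares therefore cannot be compared between pairs of unlike length. Matches were searched in the whole windows. The GAS matches of Gbp5 lie outside its printed stretch, and 1 of Gbp7 starts before it. All matches describe letters only, and binding was not measured.

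Most members lie in clusters, given here as GENCODE gene bodies on GRCm38. The Gbp cluster on chromosome 3 holds Gbp5 (chr3:142493978-142522344), Gbp7 (chr3:142530342-142550149), Gbp3 (chr3:142560026-142573209) and Gbp2 (chr3:142620602-142638008), all on the plus strand. Gbp9 (chr5:105077630-105139539) and Gbp6 (chr5:105270702-105293698) lie on the minus strand of chromosome 5, Irgm1 (chr11:48861968-48871683) on the minus strand of chromosome 11, and Igtp (chr11:58199556-58207591) and Irgm2 (chr11:58199618-58222782) on its plus strand. Iigp1 lies on mouse chromosome 18. RefSeq starts, from which the promoters were taken, differ in places from these GENCODE starts. The stretches printed for Gbp5, Irgm1 and Irgm2 lie inside the gene bodies given here, and that of Gbp2 does so in part.

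Gbp6, Gbp9 and Igtp had 0 UMIs in every kept nucleus of every library. All 3 are covered on the same strand by another gene: Igtp over 99.2% of its body by Irgm2, Gbp9 over 100% by Gbp8 (805 UMIs) and Gbp6 over all but 3 bases by Gm43302 (122 UMIs). Among protein-coding genes at least 99% covered in this way, 463 of 573 (80.8%) had no UMI, against 1599 of 20450 (7.82%) of those with no covered base. A count of 0 for these 3 genes is therefore no measure of their expression. Of the gene body of Irgm2 34.4% overlaps Igtp. How reads over both genes were counted was not tested, so the values of Irgm2 are uncertain to an extent not known here. Gbp8 and Gm43302 are named here after their values were seen.

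The other 7 members gave 13942 UMIs in 204852 kept nuclei, from 622 for Gbp2 to 3082 for Irgm1. Of these UMIs 6596 lay in astrocyte-like, 2100 in microglia-like, 1686 in excitatory neuron-like, 899 in oligodendrocyte-like, 829 in endothelial-like and 489 in oligodendrocyte precursor (OPC)-like nuclei. Libraries held 46091490 to 79484316 UMIs and 5840 to 12572 kept nuclei, and pairs of libraries shared at most 0.570% of barcodes. Marker genes placed the nuclei in classes, and all 8 astrocyte, all 11 microglia and all 10 endothelial markers were higher in their own class than in the rest, as were 11 of 12 excitatory neuron markers. The transgene labels were followed by Gm43049, a gene chosen after its values were seen, at 2.99 to 20.9 CPM in excitatory neuron-like nuclei of the 18 P301S libraries and at most 0.129 CPM in the other 9. The Cgas labels were not followed by Cgas RNA (listed as Mb21d1), which in microglia-like nuclei was 51.3 ± 7.13 CPM (mean ± SD throughout, n = 6) in the libraries labelled P301S Cgas-/- against 42.6 ± 11.2 (n = 6) in P301S Cgas+/- and 37.6 ± 11.1 (n = 6) in P301S Cgas+/+. Tau-free libraries had 35.4 CPM (32.2 to 39.0111, n = 5) in Cgas+/+, 19.1 CPM (15.9 to 22.3, n = 2) in Cgas+/- and 27.3 CPM (21.6 to 33.1, n = 2) in Cgas-/-, so the RNA followed the labelled dose in neither set, and Cgas groups below are libraries labelled with that genotype. Whether the counted reads lie outside the deleted part is not given in the sources used here.

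**Figure D1:**
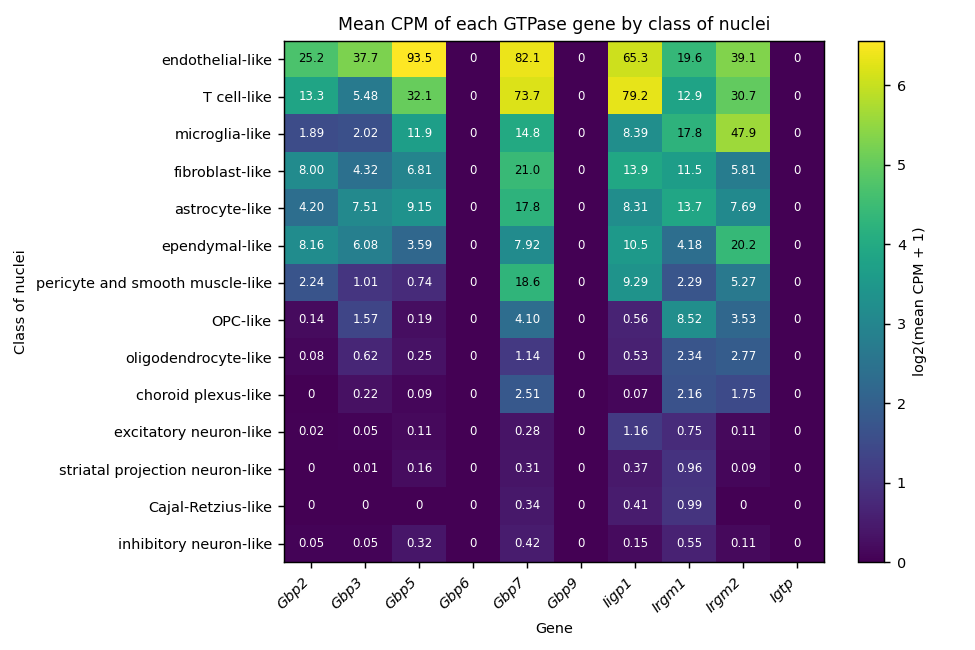
Mean CPM of each member (columns) in each nuclei class (lines of the map), over libraries of all genotypes with at least 10 nuclei of that class, with colour on a log2(mean CPM + 1) scale and the mean CPM printed in each cell. Endothelial-like nuclei are highest for Gbp2, Gbp3, Gbp5, Gbp7 and Irgm1, and microglia-like nuclei for Irgm2 (47.9 CPM). For Irgm1 the lead over microglia-like nuclei is small, 22.7 against 21.6 CPM with P301S and 13.4 against 10.1 CPM without. It rests on at most 49 endothelial UMIs.

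Endothelial-like nuclei carried the highest summed level of the members both without and with the transgene, in libraries with at least 10 nuclei of a class. Without P301S they held 232 ± 77.1 CPM (n = 8), followed by microglia-like nuclei at 95.4 ± 18.2 (n = 9). Fibroblast-like (42.9 ± 37.0, n = 5), ependymal-like (30.9 ± 17.4, n = 7), pericyte and smooth muscle-like (24.3 ± 14.5, n = 8) and astrocyte-like nuclei (21.1 ± 5.03, n = 9) came next and overlapped within their spread. With P301S, endothelial-like nuclei held 428 ± 169 CPM (n = 16), T cell-like nuclei 247 ± 187 (n = 10, all of them P301S libraries) and microglia-like nuclei 109 ± 35.7 (n = 18). Astrocyte-like nuclei then stood at 92.1 ± 57.5 CPM (n = 18), beside fibroblast-like nuclei at 82.3 ± 58.4 (n = 13), ependymal-like nuclei at 77.9 ± 88.3 (n = 12) and pericyte and smooth muscle-like nuclei at 47.0083 ± 31.7 (n = 16), again overlapping. The summed level was lowest in neurons among these classes and the oligodendrocyte lineage. It was 1.74 ± 0.474 CPM without and 2.86 ± 1.01 CPM with P301S in excitatory and 1.27 ± 0.52608 and 1.84 ± 0.786 CPM in inhibitory neuron-like nuclei. Single members differed from this order. Without P301S Iigp1 was at 0.938 CPM in excitatory neuron-like, 0.755 in astrocyte-like, 0.198 in OPC-like and 0.134 in oligodendrocyte-like nuclei. With P301S these values were 1.27, 12.1, 0.746 and 0.720 CPM.

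The members differed in where they were highest. Gbp5, an inflammasome-promoting member, was at 52.2 CPM in endothelial-like, 11.0 in microglia-like and 1.23 in astrocyte-like nuclei without P301S, and at 114 CPM, 12.3 and 13.1 with it. Gbp3 was at 22.2 CPM in endothelial-like and 1.97 in astrocyte-like nuclei without P301S, and at 45.5 and 10.3 CPM with it. Irgm2, a regulator, was at 52.7 ± 12.8 CPM in microglia-like against 30.03 ± 13.9 CPM in endothelial-like nuclei without P301S, and at 45.5 ± 16.2 against 43.7 ± 29.7 CPM with it, where the spreads overlap. Iigp1 in P301S libraries was at 79.2 CPM in T cell-like and 77.97 CPM in endothelial-like nuclei, in that order in 6 of 10 libraries. Gbp7 was lower in astrocyte-like than in microglia-like nuclei without P301S, at 8.74 ± 2.06 and 16.8 ± 8.05 CPM, and higher with it, at 22.4 ± 10.9 and 13.8 ± 5.95 CPM. Levels are compared here between classes for 1 gene at a time, since genes differ in length and introns were counted.

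To ask what the tau transgene did to these genes, the mean of the 3 P301S groups was compared with the mean of the 3 groups without it (the average tau effect). In astrocyte-like nuclei the summed level was 21.1 ± 5.03 CPM in the 9 libraries without P301S and 92.1 ± 57.5 CPM in the 18 with it. The Cgas+/+ libraries held 16.7, 32.0, 16.9, 23.01 and 18.4 CPM, the Cgas+/- libraries 17.0 and 24.4 CPM, and the Cgas-/- libraries 18.5 and 22.9 CPM. With the transgene the lowest, median and highest libraries were 32.2, 102 and 217 CPM for P301S Cgas+/+, 15.8, 81.8 and 121 CPM for P301S Cgas+/- and 24.5, 106 and 165 CPM for P301S Cgas-/-. Tau-free libraries thus kept to a narrow range, and 15 of 18 P301S libraries lay above the highest of them, while the other 3 did not exceed it. In such sums more RNA per nucleus and more nuclei with the RNA cannot be told apart.

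**Figure D2:**
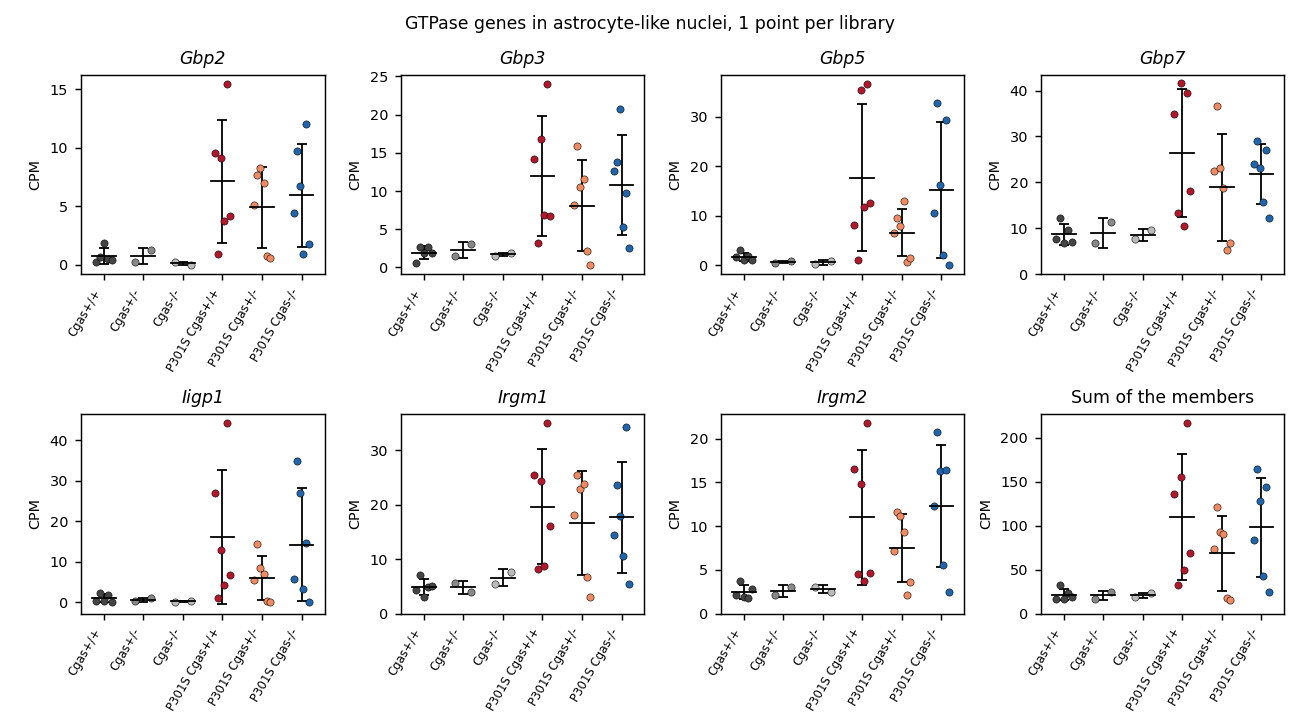
CPM of each detected member and of their sum in astrocyte-like nuclei, with 1 point per library, grouped by genotype, and bars for the mean ± SD of each group. Tau-free libraries lie low and close together, and P301S libraries spread from 15.8 to 217 CPM for the sum.

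Iigp1, Gbp5 and Gbp2 are effector GTPases. Iigp1 had a lowest, median and highest level of 0.217, 0.309 and 2.38 CPM in the 9 tau-free libraries against 0, 6.86 and 44.3 CPM in the 18 P301S libraries, and 14 of the 18 exceeded every tau-free library. Gbp5 had 0.220, 1.08 and 3.06 CPM without the transgene and 0, 10.1 and 36.7 CPM with it, with 13 of 18 libraries above the others. Gbp2 had 0, 0.434 and 1.87 CPM against 0.598, 5.93 and 15.5 CPM, again with 13 of 18 above. These 3 genes were at most 3.06 CPM in any tau-free library and reached their highest values in the same library, P301S Cgas+/+ 5.

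Gbp3 and Gbp7 are the neighbours of Gbp5 on chromosome 3. Gbp3 had 0.531, 1.87 and 3.01 CPM without the transgene and 0.299, 10.1 and 24.1 CPM with it, with 15 of 18 libraries above. Gbp7 had 6.72, 7.71 and 12.2 CPM against 5.28, 22.8 and 41.7 CPM, with 14 of 18 above.

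The regulators moved in the same direction. Irgm1 had 2.9999, 4.99 and 7.72 CPM in tau-free and 2.9885, 18.05 and 35.1 CPM in P301S libraries, with 15 of 18 above. Irgm2, which overlaps Igtp, had 1.77, 2.47 and 3.74 CPM against 2.16, 10.2 and 21.8 CPM, with 14 of 18 above.

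In the edgeR quasi-likelihood test over all 13753 genes that passed the filter on low counts, 7 of 7 tested members rose with P301S in astrocyte-like nuclei, where 2.12% of all genes rose (Benjamini-Hochberg adjusted p under 0.05). The log2 fold change was 4.39 ± 1.02 (SE throughout) for Iigp1 (adjusted p = 0.0312), 3.81 ± 0.86 for Gbp5 (adjusted p = 0.0276) and 3.79 ± 0.73 for Gbp2 (adjusted p = 0.0226). It was 2.34 ± 0.53 for Gbp3 (adjusted p = 0.0276), 1.42 ± 0.30 for Gbp7 (adjusted p = 0.0230), 1.85 ± 0.37 for Irgm1 and 2.01 ± 0.41 for Irgm2 (adjusted p = 0.0226 for both). The median over the members was 2.34, beside 0.0054 over all genes tested. The calls depend on the tau-free libraries with a reduced Cgas dose: without Cgas+/- 1, Cgas+/- 2, Cgas-/- 1 or Cgas-/- 2 the count fell from 7 to 0 in this fit, and it was 0 against Cgas+/+ alone. A fit with P301S and Cgas genotype as separate terms, added after the data were seen, called 7 without any 1 of the 27 libraries. Over 62 settings every member's astrocyte fold change stayed positive, at 1.68 to 2.05 on the log2 scale for Irgm1, 1.29 to 1.59 for Gbp7 and 3.60 to 4.76 for Iigp1.

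**Figure D3:**
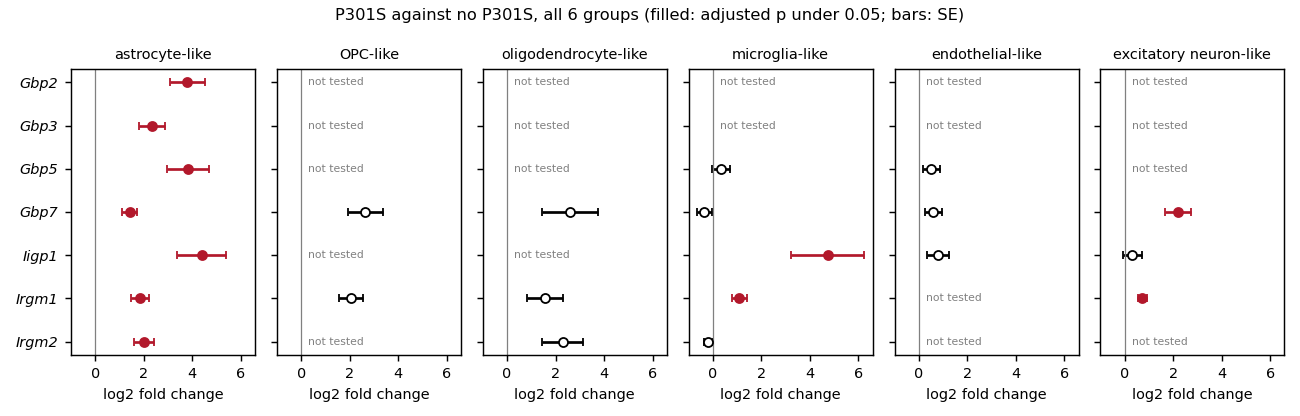
Log2 fold change ± SE of each tested member for P301S against no P301S, in 6 nuclei classes, with filled points where the edgeR adjusted p was under 0.05. All 7 astrocyte members are filled and above 1, and in microglia-like nuclei Iigp1 and Irgm1 are filled while Gbp5, Gbp7 and Irgm2 lie near 0.

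Markers of other classes in the same astrocyte-like sums were also measured. Their part in these results was not tested. The 10 endothelial markers summed to 10.2 CPM (6.49 to 16.6) in P301S and 13.1 CPM (4.87 to 21.9) in tau-free libraries. The 11 microglia markers gave 87.4 CPM (67.5 to 105) against 76.4 CPM (65.6 to 88.9), and the 9 T cell markers 6.14 CPM (2.16 to 11.3) against 5.07 CPM (3.36 to 7.37), with 2 of the 9 at 0. Oligodendrocyte markers were at 211 CPM (112 to 307) against 154 CPM (112 to 218), and 9 of 9 were higher with P301S. Ependymal markers were at 51.7 CPM (14.6 to 110) against 31.5 CPM (13.3 to 42.9), and 9 of 9 were higher.

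Software versions in the file headers split the libraries into 12 of version 3.0.2 and 15 of version 3.1.0. All 12 of version 3.0.2 were male, and every female library was of version 3.1.0. With the version as a block 6 of the 7 astrocyte calls were kept, and 6 were also made in the 12 libraries of version 3.0.2 alone. Version 3.1.0 held no tau-free library with a reduced Cgas dose, so the average tau effect could not be fitted there.

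In microglia-like nuclei the summed level of the members was 95.4 ± 18.2 CPM in the 9 tau-free and 109 ± 35.7 CPM in the 18 P301S libraries, and 5 of the 18 exceeded the highest tau-free library. Of 5 members tested 2 rose, Irgm1 and Iigp1, where 7.63% of all genes rose. Irgm1 was at 9.41, 7.31, 9.37, 11.7 and 14.9 CPM in the Cgas+/+ libraries, 7.42 and 14.3 CPM in Cgas+/- and 8.58 and 8.29 CPM in Cgas-/-. Its lowest, median and highest values were 6.77, 20.4 and 37.4 CPM in P301S Cgas+/+, 8.91, 16.7 and 34.2 CPM in P301S Cgas+/- and 14.3, 25.7 and 44.1 CPM in P301S Cgas-/-. Irgm1 thus exceeded the highest tau-free value in 13 of 18 P301S libraries, with a log2 fold change of 1.09 ± 0.31 (edgeR adjusted p = 0.0208).

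Iigp1 in microglia-like nuclei rested on few molecules. The Cgas+/+ libraries were at 2.35, 12.2, 0, 0 and 5.58 CPM and all 4 tau-free libraries of reduced Cgas dose at 0, 9 UMIs in all, while the 18 P301S libraries held 215 UMIs and ranged from 0 to 43.2 CPM with a median of 6.68 CPM. Of these, 7 exceeded the highest tau-free library and 3 were at 0. Its fitted log2 fold change of 4.73 ± 1.51 (edgeR adjusted p = 0.0453) averages over groups at 0 and so depends on the prior count. Over 57 settings its log2 fold change ran from 1.51 to 4.99 and its adjusted p from 1.2e-10 to 0.452, with a call in 31. Pooled over libraries, Iigp1 was at 2.02 CPM without and 14.0 CPM with the transgene.

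**Figure D4:**
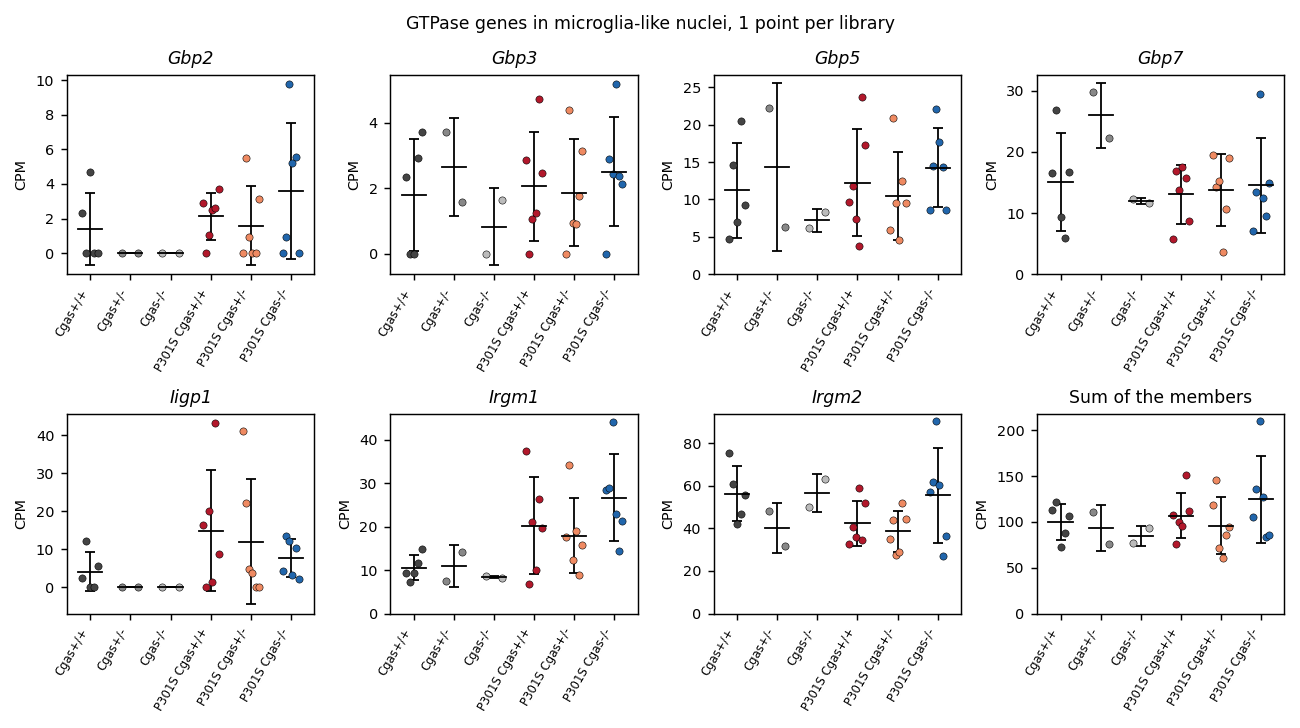
CPM of each detected member and of their sum in microglia-like nuclei, with 1 point per library, grouped by genotype, and bars for the mean ± SD of each group. Irgm1 is higher in most P301S libraries, whereas Gbp5, Gbp7 and Irgm2 overlap across all 6 groups.

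The other 3 members tested in microglia-like nuclei did not pass. Irgm2 was at 52.7 ± 12.8 CPM without and 45.5 ± 16.2 CPM with P301S (log2 fold change -0.20 ± 0.19, edgeR adjusted p = 0.580). Gbp7 was at 16.8 ± 8.05 and 13.8 ± 5.95 CPM (-0.36 ± 0.30, edgeR adjusted p = 0.510), and Gbp5 at 11.0 ± 6.54 and 12.3 ± 6.0003 CPM (0.34 ± 0.37, edgeR adjusted p = 0.618). Whether the tau effect differed between microglia-like and astrocyte-like nuclei was not tested. Gbp2 (41 UMIs) and Gbp3 (44 UMIs) did not pass the filter. The microglial counts fell from 2 to 0 without Cgas+/- 1, Cgas+/- 2, Cgas-/- 1, Cgas-/- 2 or P301S Cgas+/- 2. Endothelial markers in the same sums were at 98.3 CPM (9.47 to 263) with P301S and 51.9 CPM (32.8 to 81.3) without, with 2 of 10 markers higher, and T cell markers at 7.47 CPM (0 to 17.9) and 5.07 CPM (0 to 14.6), with 3 of 9 at 0. Their part in the microglial values was not tested.

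Excitatory neuron-like nuclei held little of any member, but 2 of the 3 tested rose with P301S, where 1.68% of all genes rose. Gbp7 had a lowest, median and highest level of 0, 0.0776 and 0.166 CPM in tau-free libraries and 0.0309, 0.379 and 0.861 CPM in P301S libraries, 14 of which lay above the others (log2 fold change 2.19 ± 0.55, edgeR adjusted p = 0.0362). Irgm1 went from 0.540 ± 0.135 to 0.859 ± 0.224 CPM (0.72 ± 0.20, edgeR adjusted p = 0.0481). Iigp1, the member with most UMIs in these nuclei, was at 0.938 CPM without and 1.27 CPM with the transgene (0.30 ± 0.39, edgeR adjusted p = 0.746). Both calls were lost with the header version as a block and with P301S and Cgas as separate terms, while over 8 settings the log2 fold change stayed at 2.02 to 2.77 for Gbp7 and 0.51 to 0.74 for Irgm1. Astrocyte markers in the same sums were at 560 CPM (354 to 887) with P301S and 604 CPM (424 to 669) without, with 2 of 8 higher. In astrocyte-like nuclei these markers summed to 26659 CPM. The part of such RNA in the neuronal values was not tested.

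In the oligodendrocyte lineage the summed level was higher in most P301S libraries, and no single member passed the test. In OPC-like nuclei the sum was 5.34 ± 3.0999 CPM without and 25.3 ± 15.2 CPM with P301S, with 14 of 18 libraries above the highest other. Irgm1 there had a log2 fold change of 2.06 ± 0.48 (edgeR adjusted p = 0.0550) and Gbp7 of 2.64 ± 0.72 (edgeR adjusted p = 0.0960), so 0 of 2 passed where 0.199% of all genes rose. DESeq2 called both.

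Oligodendrocyte-like nuclei followed the same direction, with sums of 2.34 ± 1.33 and 10.4 ± 11.1 CPM and 14 of 18 libraries above. Of 3 tested members 0 passed, where 0.00769% of all genes rose, and the log2 fold changes were 2.29 ± 0.83 for Irgm2, 1.57 ± 0.73 for Irgm1 and 2.59 ± 1.15 for Gbp7, with edgeR adjusted p of 0.214, 0.354 and 0.326. All 3 had an unadjusted p under 0.05, and DESeq2 called 1.

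Endothelial-like nuclei had the highest summed levels and, among the 7 classes tested, the fewest nuclei, 1081 in all. Their sum was 232 ± 77.1 CPM in 8 tau-free and 428 ± 169 CPM in 16 P301S libraries, of which 10 exceeded the highest other. Of these tau-free libraries only Cgas+/+ 4 was female, and females were more common among the P301S libraries. The raw endothelial levels here and above are therefore mixed with sex, which the fits hold as a term. None of the 3 tested members passed, where 0% of all genes rose (edgeR adjusted p = 0.9996 for each, and 0 with an unadjusted p under 0.05). The log2 fold changes were 0.52 ± 0.34 for Gbp5, 0.60 ± 0.36 for Gbp7 and 0.79 ± 0.46 for Iigp1, and DESeq2 called 0. In inhibitory neuron-like nuclei no member passed the filter, and 0.00751% of all genes rose.

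Among the P301S mice the same libraries stood at the ends of the range in several classes. P301S Cgas+/+ 5 had the highest sum in astrocyte-like (217 CPM), oligodendrocyte-like (49.9 CPM) and excitatory neuron-like nuclei (5.76 CPM). At the other end stood P301S Cgas+/+ 2, P301S Cgas-/- 6, P301S Cgas+/- 5 and P301S Cgas+/- 6, with astrocyte sums of 32.2, 24.5, 18.01 and 15.8 CPM. Those 4 libraries were also the lowest in oligodendrocyte-like nuclei, at 0.735, 1.76, 1.68 and 1.67 CPM, and they came from all 3 Cgas groups. Their transgene label was followed by Gm43049 as in the others. In microglia-like nuclei P301S Cgas-/- 3 was highest at 211 CPM and P301S Cgas+/- 4 lowest at 61.0 CPM, while P301S Cgas+/+ 5 ranked 2 of 18 (151 CPM) and the 4 low libraries ranked 16, 14, 13 and 12. The classes of a library come from the same mouse and the same preparation, so this order is a description.

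**Figure D5:**
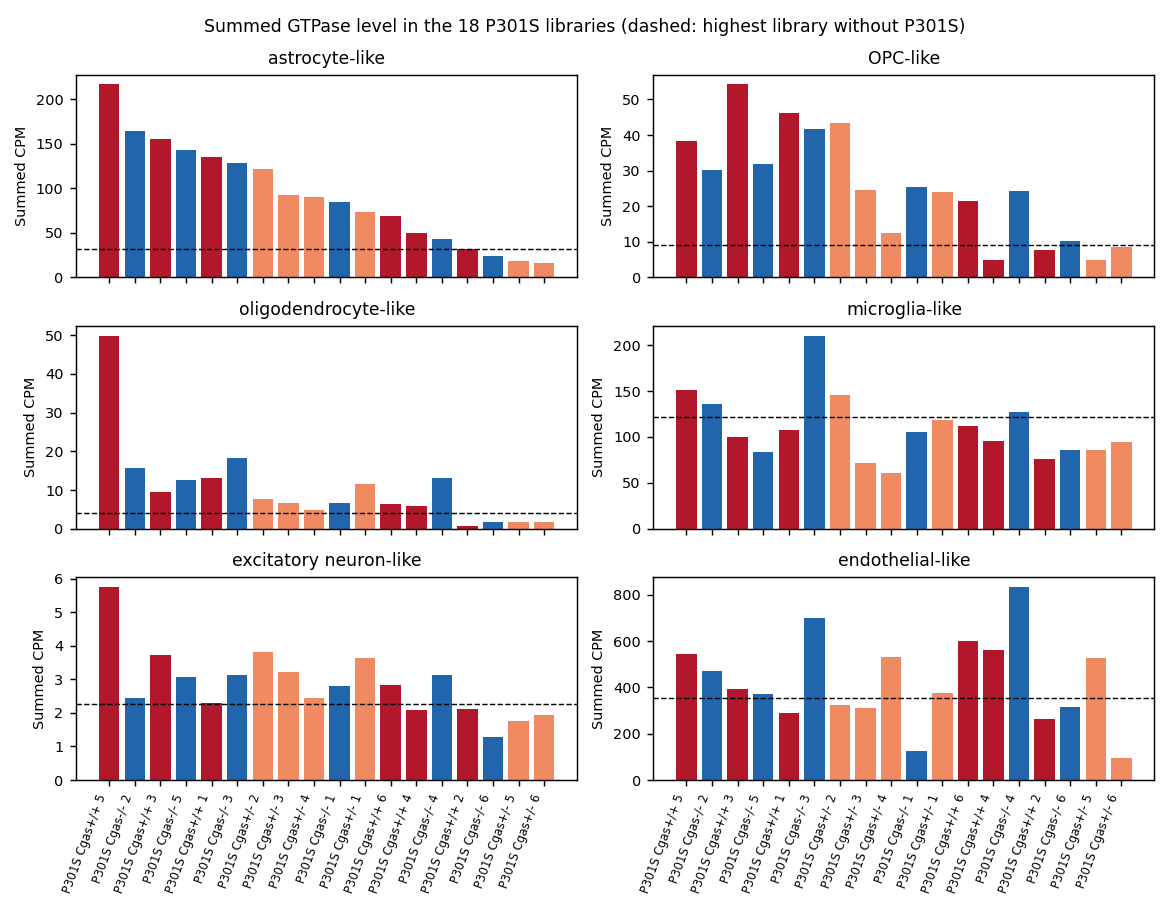
Summed CPM of the members in the 18 P301S libraries, ordered by the astrocyte-like sum and coloured by Cgas label, with 1 panel per class and a dashed line at the highest library without P301S. The same 4 libraries stand at the low end in astrocyte-like and oligodendrocyte-like nuclei, and in microglia-like nuclei they rank 12 to 16 of 18.

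T cells are known, as background, as a source of interferon gamma. T cell-like nuclei numbered 282 in the 18 P301S libraries (15.7 ± 15.8 per library) and 27 in the 9 others (3 ± 2.83), a difference that was not tested. The highest number, 63, was in P301S Cgas+/+ 5 (0.501% of its kept nuclei), and P301S Cgas+/+ 2 had 0. The highest share, 0.511%, was in P301S Cgas-/- 5 with 37 such nuclei. P301S Cgas-/- 2, second in the astrocyte sum with 165 CPM, had 4 (0.0599%). Ifng, which encodes interferon gamma and was chosen after its values were seen, had 7 UMIs in the 18 P301S and 0 in the 9 tau-free libraries. The part of T cells in the members' levels was not tested.

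Member UMIs were found in a minority of nuclei, which follows in part from there being fewer such UMIs than nuclei. At least 1 UMI of any member was found in 17.7% of 16259 P301S astrocyte-like nuclei (95% exact binomial interval 17.1 to 18.3%, median depth 3602 UMIs) and in 5.42% of 10526 tau-free ones (4.99 to 5.86%, median depth 2954 UMIs). After each nucleus was thinned to 1000 UMIs, leaving out 163 and 160 shallower nuclei, the shares were 6.22% and 1.78%. By library the unthinned share ran from 4.22 to 39.3% with P301S and from 4.03 to 7.60% without. Excitatory neuron-like nuclei, at far greater depth (9155 and 8689 UMIs), gave 2.25% and 1.41%, below the astrocyte shares. Of the members, 2 passed the test in these neurons, and whether the share given for them is a background was not tested. Whether the member UMIs in them came from other nuclei was not tested. Intervals cover counting error only.

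A single nucleus held up to 88 member UMIs, and the 100 nuclei with the most held 28.0% of the 5936 member UMIs in P301S astrocyte-like nuclei. In microglia-like nuclei the shares with a member UMI were 14.9% with and 11.9% without P301S, and after thinning 8.51% and 9.10%. These microglial shares were not tested between groups, and 892 of the 2100 member UMIs behind them were of Irgm2.

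Comparing P301S Cgas+/+ with Cgas+/+ mice alone (the tau contrast) gave no call in 21 tests of members over the classes, where 0.00906% of all gene tests were called. The lowest adjusted p from edgeR was 0.208, and 13 of the 21 had an unadjusted p under 0.05, beside 7.11% of all gene tests. The astrocyte log2 fold changes were of the size of the average tau effect, 4.27 for Iigp1, 3.39 for Gbp2, 3.38 for Gbp5, 2.64 for Gbp3, 2.21 for Irgm2, 2.11 for Irgm1 and 1.66 for Gbp7. DESeq2 on the same sums called all 7, with adjusted p from 0.00567 to 0.0341, where it called 1.21% of all genes higher. The 2 comparisons share the P301S Cgas+/+ and Cgas+/+ libraries.

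Whether reducing Cgas changed the members in P301S mice was asked by 3 comparisons. In the deletion contrast (P301S Cgas-/- against P301S Cgas+/+) 0 members passed, where 0% of all gene tests were called. An unadjusted p under 0.05 was found for 0 of 21 member tests, beside 6.39% of all gene tests. The astrocyte sum was 98.0 ± 56.6 CPM in P301S Cgas-/- and 110 ± 71.4 CPM in P301S Cgas+/+ (n = 6 each). Astrocyte log2 fold changes ran from -0.37 ± 0.82 for Iigp1 to 0.04 ± 0.45 for Irgm2 (edgeR adjusted p = 0.9999 for all 7). With errors of this size a change by a factor of 2 in either direction cannot be told from none for Iigp1, Gbp5 or Gbp2. In microglia-like nuclei Iigp1 was at 7.61 ± 5.001 CPM in P301S Cgas-/- and 14.9 ± 16.0 CPM in P301S Cgas+/+ (log2 fold change -1.31 ± 0.80, edgeR adjusted p = 0.9999), and Irgm1 at 26.7 ± 10.1 and 20.2 ± 11.1 CPM (0.23 ± 0.31, edgeR adjusted p = 0.9999).

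The heterozygous contrast (P301S Cgas+/- against P301S Cgas+/+) called 0 members, where 0.00129% of all gene tests were called. P301S Cgas+/- libraries had the lowest astrocyte sum of the 3 P301S groups, 68.5 ± 42.8 CPM. Iigp1 and Gbp5 had log2 fold changes of -1.62 ± 0.87 and -1.49 ± 0.77 there (edgeR adjusted p = 0.9998 for both). An unadjusted p under 0.05 was found for 0 of 21 member tests, beside 5.54% of all gene tests. P301S Cgas-/- against P301S Cgas+/- likewise gave 0 members and 0% of all gene tests. Irgm2 in microglia-like nuclei, at 55.5 ± 22.2 against 38.6 ± 9.57 CPM, was the 1 member test of 21 with an unadjusted p under 0.05 (log2 fold change 0.51, edgeR adjusted p = 0.9995). Such a p was found in 1.73% of all gene tests. DESeq2 called 0 members in all 3 comparisons. The astrocyte sums thus overlapped between the 3 groups, with the heterozygotes lowest, and errors of this size leave an order by dose undecided.

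Without the transgene, Cgas-/- against Cgas+/+ and Cgas+/- against Cgas+/+ called 0 members and 0% of all gene tests each, on 2 against 5 libraries. An unadjusted p under 0.05 by edgeR was found for 0 of 23 members in each, beside 3.74% and 2.31% of all gene tests. DESeq2 called 0 members in both. The interaction of P301S and the deletion called 0 members by either tool, where edgeR called 0.00247% of all gene tests. An unadjusted p under 0.05 was again found for 0 of 23 members, beside 7.63% of all gene tests. Females against males called 0 members by either tool, where edgeR called 3.25% of all gene tests. Every female library was of header version 3.1.0 and every library of version 3.0.2 was male, so sex is confounded in part with version. An unadjusted p under 0.05 was found for 1 of 23 member tests, beside 16.0% of all gene tests. This was Gbp5 in endothelial-like nuclei, at 154 ± 67.4 CPM in 8 female and 63.3 ± 29.3 CPM in 16 male libraries of all genotypes (log2 fold change 1.11 ± 0.29, edgeR adjusted p = 0.165). All of these female libraries but Cgas+/+ 4 carried P301S, so the raw means are mixed with the transgene.

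Other genes of the pathway were read from lists, for the average tau effect, beside which 2.12% of all genes rose in astrocyte-like and 7.63% in microglia-like nuclei. These calls share the limits of the members' calls: over all genes the astrocyte count of 386 in either direction fell to 1 against Cgas+/+ alone and to 7, 3, 2 and 1 without Cgas+/- 1, Cgas+/- 2, Cgas-/- 1 and Cgas-/- 2, it lay between 100 (without P301S Cgas-/- 5) and 786 (without P301S Cgas+/+ 2) without any other library, and the microglial count of 1145 fell to 182 against Cgas+/+ alone and to 268, 506 and 632 without Cgas+/- 2, Cgas-/- 1 and Cgas-/- 2. In the tau contrast edgeR called 1 gene of all in astrocyte-like and 0 in microglia-like nuclei, none of them in these lists, where DESeq2 called 171 and 234. Of the other interferon-inducible GTPases 4 of 6 tested rose in astrocyte-like nuclei, among them Gbp2b (log2 fold change 5.34 ± 0.82, edgeR adjusted p = 0.00691) and Gm4951 (4.47 ± 0.98, edgeR adjusted p = 0.0266), and the list's median was 3.87. In microglia-like nuclei 3 of 6 rose, Mx1 (3.74 ± 0.71), Gm4951 (2.50 ± 0.58) and Gvin1 (1.99 ± 0.52), with edgeR adjusted p of 0.00303, 0.00917 and 0.0130. The GTPase class thus held genes that rose in microglia-like nuclei, although Gbp5, Gbp7 and Irgm2 did not pass there.

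Upstream of the members, none of 4 tested interferons and receptors passed in astrocyte-like nuclei (Ifnar2, a type I receptor chain, 0.31 ± 0.14, edgeR adjusted p = 0.234), while 3 of 4 rose in microglia-like nuclei, Ifnar1 by 0.66 ± 0.18, Ifnar2 by 0.53 ± 0.16 and Ifngr2 by 0.45 ± 0.12 on the log2 scale. Of the signal transducers and transcription factors 5 of 11 rose in astrocyte-like nuclei, with Stat2 at 1.03 ± 0.20, Irf9 at 1.04 ± 0.21 and Irf7 at 4.26 ± 0.89 (edgeR adjusted p = 0.0226 for each). In microglia-like nuclei 4 of 12 rose, among them Nlrc5, a transactivator of class I antigen presentation, at 3.76 ± 0.67. The medians of this list were 0.72 and 0.68, beside 0.0054 and 0.0111 over all genes.

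Of the negative regulators 2 of 7 rose in astrocyte-like nuclei (Socs3 by 4.78 ± 0.94 and Usp18 by 5.08 ± 1.05 on the log2 scale) and 3 of 6 in microglia-like nuclei (Usp18 by 3.41 ± 0.71, Adar by 0.69 ± 0.16 and Ptpn6 by 0.81 ± 0.19). Of the autophagy-related conjugation proteins that load GTPases onto membranes, 0 of 11 passed in astrocyte-like nuclei (median 0.0050) and 1 of 9, near the share of all genes, in microglia-like nuclei, Atg7 (0.76 ± 0.21, edgeR adjusted p = 0.0233). Inflammasome and ubiquitin proteins acting with the GTPases gave 2 of 7 (Rnf213 by 0.99 ± 0.24 and Lgals3 by 2.80 ± 0.76) and 4 of 12, among them Casp4, the non-canonical inflammasome caspase (1.34 ± 0.25, edgeR adjusted p = 0.00189). No gene of any list fell.

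Among targets of the same signals, 12 of 20 type I interferon-stimulated genes rose in astrocyte-like nuclei, such as Oasl2 (4.31 ± 0.85) and Ifit1 (4.32 ± 0.90), and 19 of 21 in microglia-like nuclei, such as Sp100 (2.62 ± 0.49) and Ddx58 (1.11 ± 0.24). For antigen presentation and other interferon gamma targets the counts were 8 of 9, with Cxcl10 at 3.60 ± 0.82 and B2m at 1.43 ± 0.35, and 10 of 13, with Cd274 at 2.36 ± 0.41 and H2-K1 at 2.61 ± 0.48. In excitatory neuron-like nuclei, where 1.68% of all genes rose, 6 of 19 type I genes and 3 of 9 antigen presentation genes did. In oligodendrocyte-like, endothelial-like and inhibitory neuron-like nuclei, where 0.00769%, 0% and 0.00751% of all genes rose, no gene of any list was called. The genes whose level over the 27 libraries was most like the mean of the 5 tested members in microglia-like nuclei were Oas2 (Pearson r = 0.856), Ddx60 (0.841), Zbp1 (0.8291), Eif2ak2 (0.827) and Parp14 (0.826), given as a description over libraries that share their groups.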

How the data were processed

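Nuclei were isolated from hippocampi, barcoded with the Chromium 3' v3 kit and, per the labels and the study's methods, aligned to mm10 with Cell Ranger (version 3.1.0 in the submitters' notes, 3.0.2 in 12 file headers), counting reads on pre-mRNA, so introns are included. The authors deposited 1 matrix of UMI counts per library, unnormalized, with 241938 barcodes in all. Total UMIs per library were 46091490 to 79484316 and median UMIs per barcode 2225 to 8996.

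Nuclei outside 200 to 4000 genes or above 5% mitochondrial UMIs were dropped, and 16429 likely doublets (the highest simulated-doublet scores, 0.8% per 1000 barcodes) were removed, which left 204852. Counts scaled to 10000 per nucleus were log-transformed, and 2000 variable genes and 30 principal components gave 43 Leiden clusters (15 neighbours, resolution 1; scanpy 1.11.5, Python 3.11.15). A cluster was named "-like" from at least 3 markers. The naming thresholds were set after the markers were seen, and 14180 nuclei stayed unnamed. Members and gene lists were chosen with earlier results of these data known.

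UMIs were summed per library and class (at least 10 nuclei) and tested over all genes with edgeR 4.0.16 (TMM, filterByExpr, robust quasi-likelihood test, group and sex as terms, R 4.3.3), Benjamini-Hochberg adjusted per class at 0.05. Contrasts among P301S groups and Cgas+/+ used 23 libraries, and the others 27. Replicates are mice. The study's own test treated nuclei as units, which was not done here. DESeq2 1.42.0, no filter, no sex term, nuclei with at least 2 markers, other sets of libraries and leaving out single libraries were alternatives. On simulated counts the average tau fit recovered 70 of 92 genes changed by 1 and 103 of 104 changed by 2 on the log2 scale, among 13536 genes. The fit of the tau contrast recovered 57 of 84 and 104 of 110, among 12976 genes. Changed genes were drawn from all filtered astrocyte genes, so these shares do not give the recovery of the members.

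Named genes are the 10 members, up to 3 genes per list, class and contrast with the smallest unadjusted p, up to 3 with the highest mean CPM, Mb21d1, and the 5 genes most correlated with the members in microglia-like nuclei. Gm43049, Gm43302, Gbp8 and Ifng fall outside this rule and were chosen after their values were seen. One gene of the lists is not reported here by name. Gene bodies come from GENCODE M21 and promoters from RefSeq.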

Additional observations from a re-analysis of the deposited data

Results flagged for a closer look

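A single library stood apart from the rest of its group in 5 of the 108 groups of 4 to 10 libraries examined, about as many as chance gives (1 in 20). Gbp7 in microglia-like nuclei was at 29.4 CPM in P301S Cgas-/- 3, where the other 5 libraries of the group lay between 7.12 and 14.96 CPM. Gbp2 in astrocyte-like nuclei was at 1.87 CPM in Cgas+/+ 3, against 0.266 to 0.680 CPM in the other 4. The summed level of the members in oligodendrocyte-like nuclei was 49.9 CPM in P301S Cgas+/+ 5, against 0.735 to 13.1 CPM. In inhibitory neuron-like nuclei the sum was 0.336 CPM in Cgas+/+ 5, against 1.05 to 1.18 CPM, and in endothelial-like nuclei the same mouse had the highest sum of its group, 353 CPM against 142 to 162 CPM.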

How the results depend on the processing

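Of 28 fold changes of members refitted 1118 times, 1014 refits kept the side of the threshold, 86 lost a call, 15 gained one and 3 changed direction, and 14 values with no test moved by more than the spread between libraries. The cause was not tested. In the average tau effect the number of members called in astrocyte-like nuclei, 7 as reported, was 4 without the low-count filter, 0 with the P301S groups set against Cgas+/+ alone, and 0 to 7 on leaving out single libraries. In microglia-like nuclei, 2 as reported, it was 1 with the header version as a block, 1 in header version 3.0.2 alone, 0 against Cgas+/+ alone, 0 to 2 on leaving out single libraries and 1 to 2 when this was done with P301S and Cgas as 2 terms. In excitatory neuron-like nuclei, 2 as reported, it was 1 without the filter, 1 in nuclei with at least 2 markers, and 0 with the version block, against Cgas+/+ alone, with 2 terms and in version 3.0.2 alone. In OPC-like nuclei, 0 as reported, it was 2 with DESeq2, 4 without the filter, 1 without the sex term and 1 with 2 terms, and in oligodendrocyte-like nuclei 1 with DESeq2 instead of 0. In the tau contrast it was 7 in astrocyte-like nuclei with DESeq2, 3 in OPC-like and 1 in microglia-like nuclei without the filter, each instead of 0. Reversed values were those of Gbp5 in the microglial tau contrast, -0.15 without P301S Cgas+/+ 5 (range -0.15 to 0.58 over left-out libraries), and of Gbp7, 0.32 in header version 3.1.0 alone and 0.049 without Cgas+/+ 2 (range -0.44 to 0.049). Settings by header version, by 2 terms and against Cgas+/+ alone, and leaving out libraries from the average tau effect, were added after the data were seen. Single libraries were not left out in OPC-like, excitatory neuron-like or inhibitory neuron-like nuclei.

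Counts over all genes moved further. For the average tau effect they went in astrocyte-like nuclei from 386 to 721 with DESeq2, 140 without the filter, 120 with the version block, 82 in version 3.0.2 and 1 against Cgas+/+ alone, and in microglia-like nuclei from 1145 to 409 in version 3.0.2 and 182 against Cgas+/+ alone. They went in excitatory neuron-like nuclei from 444 to 1069 with DESeq2, 252 without the filter, 10 with 2 terms and 4 against Cgas+/+ alone, in OPC-like nuclei from 31 to between 8 and 238, in oligodendrocyte-like nuclei from 1 to up to 190 and in inhibitory neuron-like nuclei from 3 to up to 227. In the tau contrast they went from 0 to 804 in microglia-like nuclei without the filter and 234 with DESeq2, and from 1 to 171 in astrocyte-like nuclei with DESeq2. Every female library is of version 3.1.0, and for females against males the version block took 1565 calls in excitatory neuron-like nuclei to 15. DESeq2 took the interaction from 2 to 695 there and the heterozygous contrast from 0 to 126.

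No paired analysis was possible because replicate numbers only name mice within a group and no label ties mice of different groups. Depth limits Gbp2 and Gbp3 in microglia-like nuclei, Iigp1 in tau-free microglia-like nuclei, and every member in endothelial-like nuclei. Leaving out nuclei in the upper 10% of UMI totals moved the mean summed level by less than the spread between libraries in the 7 classes compared.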
